A study of Homo sapiens with 282 samples.

Results

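Mitomycin C at 2.56 uM was compared with the vehicle DMSO after 6 h in OCI-Ly3, an established line of human diffuse large B cell lymphoma cells. The comparison holds 11 of the 282 arrays of the series, taken by their titles: 3 arrays of cells exposed to 2.56 uM mitomycin C for 6 h and 8 arrays of cells given 1% DMSO for 6 h. All cells were grown in IMDM with serum and seeded in multiwell plates, and total RNA was taken from single wells. The series tested 14 compounds at 6, 12 and 24 h, and other 6 h groups used below are mitomycin C at 0.553 uM (3 arrays), doxorubicin at 0.101 uM (3), etoposide at 0.811 and 0.812 uM (6 in all), camptothecin at 0.31 uM (3) and cells in medium alone (2). The labels give no DMSO content for the mitomycin C wells. Whether replicates are separate cultures is not stated either, so the spread between arrays may be technical. Each group is the same cell line in wells of whole cell populations, so fewer cells of a state and less RNA per cell cannot be told apart.

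Mitomycin C is an antitumour quinone that must be reduced inside the cell before it alkylates guanine. It forms monoadducts and crosslinks between the strands of DNA, and a crosslink stops both replication forks and RNA polymerase. Cells detect stalled forks through the ATR and CHK1 kinases, unhook crosslinks with the Fanconi anaemia proteins and structure-specific nucleases, and stabilise the transcription factor p53, which activates genes of arrest, death and repair. Genes for mitosis and for DNA replication are switched on in turn through the cell cycle, replication genes by E2F factors before S phase and mitotic genes later by B-MYB and FOXM1.

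Values are log2 probe intensities, and each gene is read from the probe set with the highest mean over all arrays. Fold changes are differences of log2 means, mitomycin C minus DMSO, with their standard error, tested in limma, and every adjusted p is limma's after Benjamini-Hochberg adjustment across the 18239 genes. Calls were made where it was under 0.05. No 6 h array was of low signal: upper quartiles were 8.30 to 8.32 on the mitomycin C arrays and 8.22 to 8.32 on the DMSO arrays. DMSO replicate 2 stood a little apart, with a median over probe sets of 5.59 and a correlation of 0.9966 with the other DMSO arrays, and without it 448 genes were called. The number of arrays limits the precision, and the median standard error of the comparison was 0.099. Detection calls were not used, so the change of a dim gene may be understated; the median level over all genes was 6.58 under mitomycin C and 6.52 in DMSO.

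At 6 h, 542 genes passed the test, which is 2.97% of those tested. Of these, 343 rose (1.88%) and 199 fell (1.09%), and on 463 of the 542 the mitomycin C arrays were all above or all below the 8 DMSO arrays, against 973 of all genes (5.33%). Changes were small. On the probe sets read, 1 gene, SDC1, rose by more than 1 on the log2 scale, and 7 fell by more than 1. With each array centred on its median, 190 rose and 380 fell, and after a second quantile normalization 309 rose and 246 fell, so the balance between rises and falls depends on the scaling. Without mitomycin C replicate 1, 2 or 3 the count of calls was 337, 311 and 339. Mitotic genes led the falls, with 6 of the 7 past 1 (PLK1, CENPE, KIF20A, DLGAP5, CENPA and CCNB1), and replication genes and p53 targets were among the rises, as the plot of gene lists shows. All 3 of these lists kept their directions under both scalings.

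**Figure D1:**
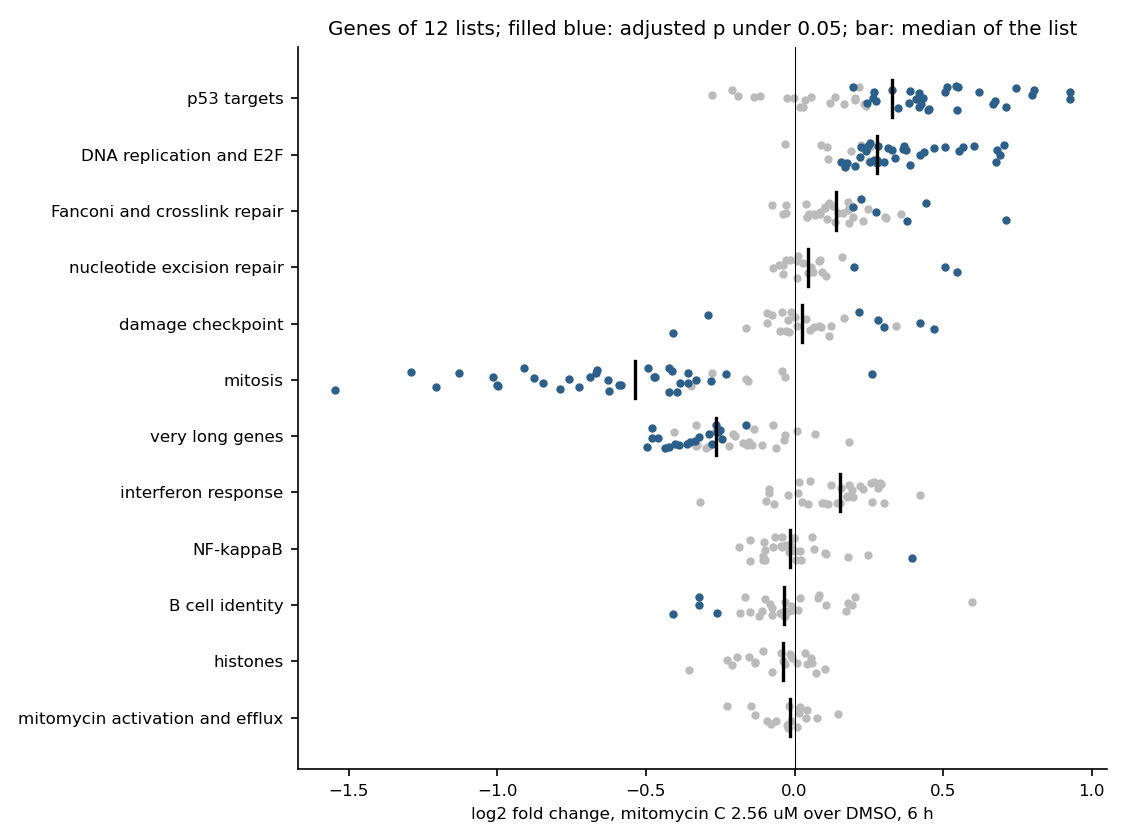
Log2 fold change at 6 h, mitomycin C 2.56 uM over DMSO, for each measured gene of 12 lists. Blue points passed an adjusted p of 0.05, grey points did not, and the black bar is the median of the list. The mitosis list lies furthest to the left with a median of -0.54, and p53 targets (0.33) and replication genes (0.28) lie furthest to the right.

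The mitosis genes fell almost as a whole. Of 40 measured, 33 fell and 1 rose, with a median log2 fold change of -0.54 against -0.01 over all genes, and 34 of the 40 had all mitomycin C arrays below all DMSO arrays (2.24% of all genes did). By role, 16 of 18 spindle and kinetochore genes fell (median -0.72), 10 of 12 kinases and cyclins (median -0.54) and 7 of 10 genes of mitotic exit and other steps (median -0.39). Against the medium arrays in place of DMSO, a comparison added after the data were seen, 23 of 40 were lower and 0 higher, with a median of -0.33. Of all genes 9.92% were lower and 13.4% higher than in medium, 23.3% in all, and the 2 medium arrays carry no vehicle.

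PLK1, the polo-like kinase that drives entry into and exit from mitosis, was the largest fall of all genes. It had 8.21, 8.21 and 8.27 on the mitomycin C arrays, against 9.69, 9.74 and 9.95 as the lowest, median and highest of the DMSO arrays, a change of -1.55 ± 0.07 (adjusted p = 1.08e-32), or 2.92-fold lower. The groups were far apart, and the mitomycin C arrays lay close together. CENPE, a kinesin that carries chromosomes to the spindle equator, had 8.30, 8.44 and 8.22 under mitomycin C, against 9.55, 9.61 and 9.68 in DMSO, a change of -1.29 ± 0.06 (adjusted p = 3.62e-30). KIF20A, a kinesin of cytokinesis, had 8.01, 7.96 and 8.01 under mitomycin C, against 9.07, 9.20 and 9.35 in DMSO, and changed by -1.21 ± 0.06 (adjusted p = 2.34e-29). Neither gene had overlapping groups.

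CCNB1, cyclin B1, the partner of CDK1 at mitotic entry, had 10.04, 10.04 and 10.12 under mitomycin C, against 10.97, 11.04 and 11.29 in DMSO, and changed by -1.0 ± 0.07 (adjusted p = 1.54e-22). CDC20, the activator of the anaphase-promoting complex, had 9.59, 9.66 and 9.66 under mitomycin C, against 10.54, 10.63 and 10.74 in DMSO, and changed by -1.0 ± 0.06 (adjusted p = 4.63e-27). CENPA, the histone variant that marks centromeres, had 9.34, 9.48 and 9.44 under mitomycin C, against 10.34, 10.46 and 10.49 in DMSO, and changed by -1.01 ± 0.05 (adjusted p = 5.58e-28). In all 3 the mitomycin C arrays lay below every DMSO array. DLGAP5, a spindle assembly factor, fell by 1.13 ± 0.06 (adjusted p = 1.85e-26). Falls between 0.75 and 0.93 were seen for ASPM and HMMR, which organise spindle microtubules, for the kinesins KIF18A, KIF23 and KIF14, for TPX2, the activator of Aurora A, and for PSRC1, a spindle protein outside the list. The spindle checkpoint kinases BUB1 (-0.72 ± 0.07, adjusted p = 1.92e-12) and BUB1B (-0.66 ± 0.08, adjusted p = 3.52e-10) fell by less, as did ANLN, UBE2C and the proliferation marker MKI67 (-0.41 ± 0.07, adjusted p = 1.3e-05).

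Not every gene of mitosis took part. CDK1, the mitotic kinase itself, chosen after its values were seen, had 10.80, 10.83 and 10.82 under mitomycin C, against 10.72, 10.88 and 10.98 in DMSO, within the DMSO range, a change of -0.04 ± 0.05 (adjusted p = 0.795). Its 3 probe sets all lay below 0, from -0.26 to -0.04, and 0 of them were called with limma run on every probe set. MYBL2, which encodes B-MYB and is itself an E2F target, also chosen after its values were seen, rose: 9.71, 9.77 and 9.79 under mitomycin C, against 9.28, 9.48 and 9.69 in DMSO, a change of 0.26 ± 0.07 (adjusted p = 0.0159). It was the only member to rise, its groups lay close without overlap, and it was not called with each array centred on its median or without mitomycin C replicate 2 or 3 or DMSO replicate 2. Among falls outside the list, DHRS2, a short-chain reductase, had 5.95, 5.87 and 6.17 under mitomycin C, against 6.89, 7.25 and 7.69 in DMSO, and changed by -1.25 ± 0.12 (adjusted p = 3.22e-14). The groups were well separated, but DHRS2 was lower still in medium, at 5.52 and 5.48, and mitomycin C minus medium was 0.50 ± 0.16 (adjusted p = 0.0135), the opposite direction.

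**Figure D2:**
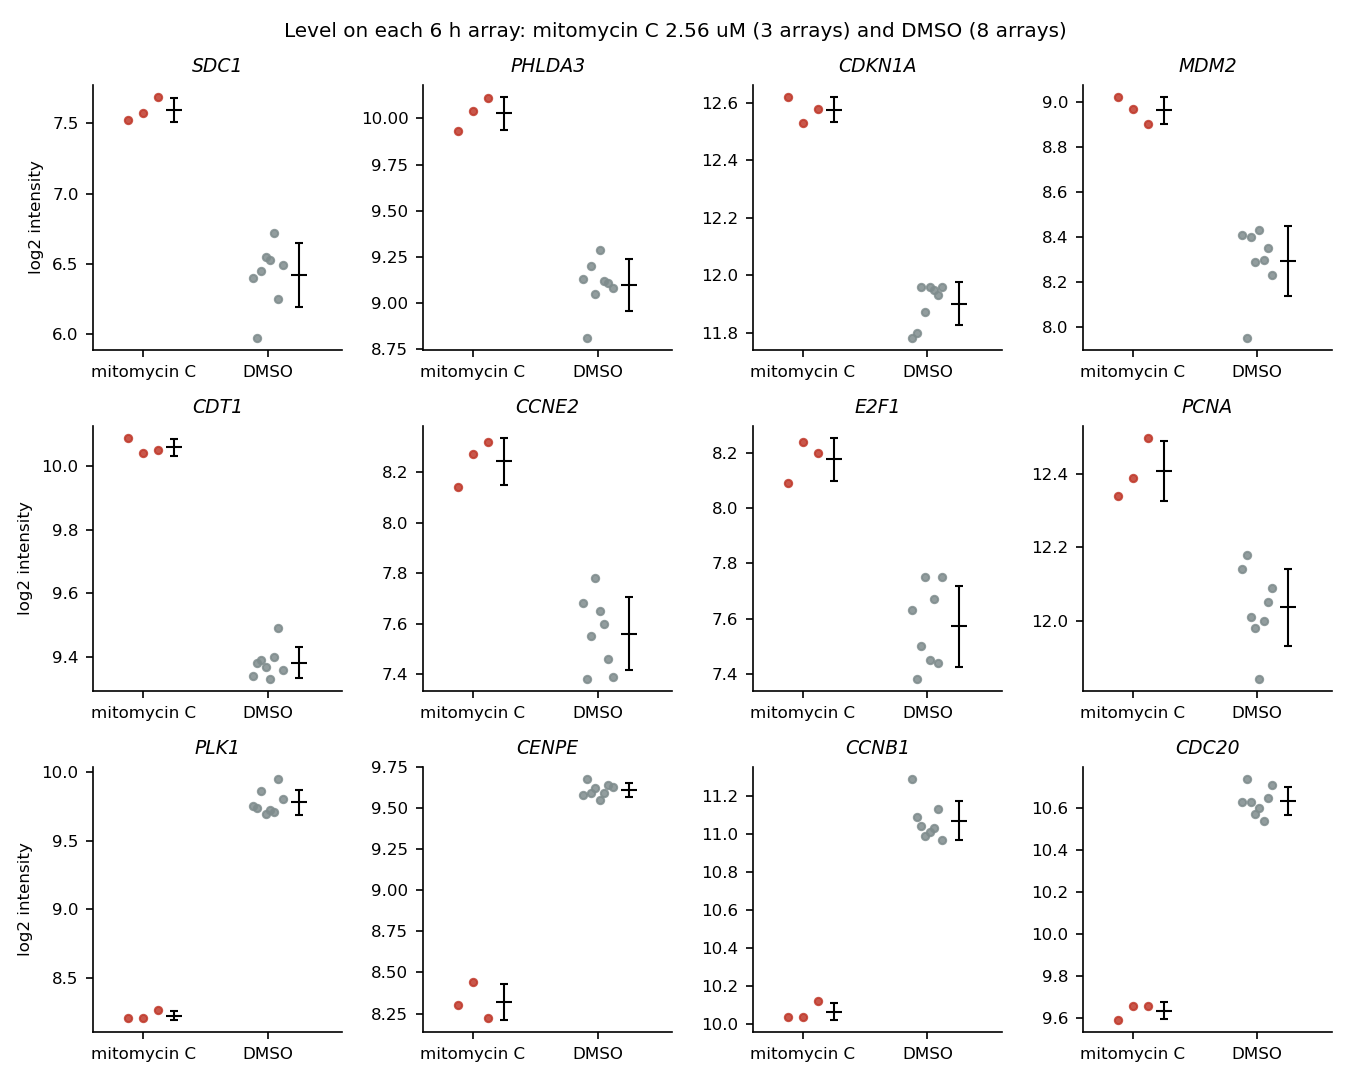
Log2 intensity of 12 genes on each 6 h array, with mitomycin C 2.56 uM (red, 3 arrays) to the left of DMSO (grey, 8 arrays). The bar beside each group is its mean with the SD, and the scale of each panel starts above 0. In all 12 panels the mitomycin C arrays lie outside the DMSO range, above it for SDC1, PHLDA3, CDKN1A, MDM2, CDT1, CCNE2, E2F1 and PCNA and below it for PLK1, CENPE, CCNB1 and CDC20.

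The promoters of the fallen mitotic genes are shown because many hold the same short motif. The cell cycle gene homology region, or CHR, with the letters TTTGAA, is an element near the start site of mitotic genes that is bound by the DREAM and MuvB complexes. It was searched on both strands of RefSeq promoters (GRCh38.p14), from 250 bases before to 50 after the start site, which were found for 14492 of the tested genes. The motif was present in 32.1% of 168 promoters of genes that fell, in 6.84% of 263 promoters of genes that rose and in 12.1% of all. In the mitosis list 24 of 34 promoters held it, and outside that list 24.3% of 140 promoters of fallen genes. A match is a description of the letters and not of a bound site. The 150 bases before the start site of 4 of the largest falls follow, 5′ to 3′ on the strand of the gene, with the CHR in capitals; the motif starts 29 bases before the start site in PLK1, 18 in CENPA, 65 in CDC20, and 28 and 22 in HMMR.
PLK1 (chr16:23678739-23678888, plus strand): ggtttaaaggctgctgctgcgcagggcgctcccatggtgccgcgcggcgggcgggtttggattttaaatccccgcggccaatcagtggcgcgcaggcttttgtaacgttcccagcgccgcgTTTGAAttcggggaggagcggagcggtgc
CENPA (chr2:26785906-26786055, plus strand): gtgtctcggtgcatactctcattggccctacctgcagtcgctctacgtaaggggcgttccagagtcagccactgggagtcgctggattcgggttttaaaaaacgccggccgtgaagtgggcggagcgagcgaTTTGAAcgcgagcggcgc
CDC20 (chr1:43358831-43358980, plus strand): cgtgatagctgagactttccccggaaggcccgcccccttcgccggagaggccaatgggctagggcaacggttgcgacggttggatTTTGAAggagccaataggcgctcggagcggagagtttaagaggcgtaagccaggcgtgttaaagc
HMMR (chr5:163460482-163460631, plus strand): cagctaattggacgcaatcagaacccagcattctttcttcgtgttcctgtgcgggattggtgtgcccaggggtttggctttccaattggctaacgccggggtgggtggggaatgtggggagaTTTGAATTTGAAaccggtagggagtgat

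Genes of DNA replication and their E2F regulators rose together. Of 43 measured, 33 rose and 0 fell, with a median of 0.28, and 33 had all mitomycin C arrays above all DMSO arrays (3.1% of all genes did). All 7 regulators rose (median 0.61), with 15 of 18 licensing and helicase genes (0.25), 9 of 14 genes of polymerases and fork (0.26) and 2 of 4 of nucleotide supply (0.17). Against the medium arrays, 16 were higher and 0 lower (13.4% and 9.92% of all genes), with a median of 0.14.

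Among the regulators, CCNE2, cyclin E2, which pairs with CDK2 at the start of S phase, had 8.14, 8.27 and 8.32 under mitomycin C, against 7.38, 7.58 and 7.78 in DMSO, a change of 0.68 ± 0.14 (adjusted p = 0.000947). E2F1, an activator of S phase genes and itself an E2F target, had 8.09, 8.24 and 8.20 under mitomycin C, against 7.38, 7.57 and 7.75 in DMSO, a change of 0.60 ± 0.10 (adjusted p = 3.12e-06). E2F8, a repressor of the same family, had 6.64, 6.74 and 6.77 under mitomycin C, against 5.79, 6.0 and 6.26 in DMSO, and changed by 0.69 ± 0.14 (adjusted p = 0.000415). The groups did not overlap for any of the 3. E2F2, another activator, changed by 0.70 ± 0.14 (adjusted p = 0.000169), but its other probe set changed by -0.12, and with the mean of both it was not called.

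CDT1, which loads the MCM helicase onto origins, had 10.09, 10.04 and 10.05 under mitomycin C, against 9.33, 9.38 and 9.49 in DMSO, a change of 0.68 ± 0.08 (adjusted p = 2.2e-10). CDC6, its partner in licensing, had 10.28, 10.48 and 10.47 under mitomycin C, against 9.56, 9.87 and 10.01 in DMSO, and changed by 0.57 ± 0.06 (adjusted p = 2.53e-12). Both sets of mitomycin C arrays lay above every DMSO array. MCM10, an initiation factor, changed by 0.55 ± 0.07 (adjusted p = 5.52e-10) and the origin recognition subunit ORC1 by 0.43 ± 0.07 (adjusted p = 3.38e-06). PCNA, the sliding clamp of the polymerases and also a p53 target, had 12.34, 12.39 and 12.50 under mitomycin C, against 11.84, 12.03 and 12.18 in DMSO, and changed by 0.37 ± 0.05 (adjusted p = 1.57e-07). Its groups did not overlap. The chromatin assembly subunits CHAF1A and CHAF1B rose by 0.39 ± 0.07 and 0.37 ± 0.07. For nucleotide supply, thymidine kinase TK1 changed by 0.33 ± 0.05 (adjusted p = 6.42e-07) and thymidylate synthase TYMS by 0.18 ± 0.05 (adjusted p = 0.0368), a call lost when any single mitomycin C array, or DMSO replicate 7 or 8, was left out, while the ribonucleotide reductase subunits RRM1 (0.11 ± 0.07, adjusted p = 0.56) and RRM2 (0.17 ± 0.06, adjusted p = 0.0793) did not pass. The other probe set of RRM2 changed by 0.36, and with limma run on every probe set 1 of its 2 was called higher. Histone genes, whose messages build chromatin behind the fork, did not pass: of 21 histone genes measured, 0 were called by limma, with a median of -0.04. Of the 21, 4 had an unadjusted p under 0.05, all lower, as did 2367 of all 18239 genes in both directions.

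The promoters of these genes are shown for another motif. E2F sites were searched as TTTGGCGC, TTTCCCGC, TTTCGCGC or TTTGCCGC on both strands of the same promoters. One or more was present in 15.2% of 263 promoters of genes that rose, in 1.19% of 168 of genes that fell and in 4.54% of all. In the replication list 20 of 38 promoters held one, against 3 of 34 in the mitosis list, and 10.6% of 235 promoters of risen genes outside the replication list did. The CHR was in 1 of the 38. The 150 bases before the start site of 4 members that rose follow, 5′ to 3′ on the strand of the gene, with the E2F letters in capitals, as their reverse complement where the match is on the opposite strand; they start 33 and 20 bases before the start site in E2F1, 42 in E2F2, 35 in CDT1 and 59 in PCNA.
E2F1 (chr20:33686386-33686535, minus strand): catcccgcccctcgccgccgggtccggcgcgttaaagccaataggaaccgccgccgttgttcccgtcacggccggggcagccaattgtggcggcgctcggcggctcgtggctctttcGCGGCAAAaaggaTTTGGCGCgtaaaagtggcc
E2F2 (chr1:23531234-23531383, minus strand): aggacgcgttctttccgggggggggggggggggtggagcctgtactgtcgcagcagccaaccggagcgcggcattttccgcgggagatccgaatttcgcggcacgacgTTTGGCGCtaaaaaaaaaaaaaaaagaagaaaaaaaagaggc
CDT1 (chr16:88803639-88803788, plus strand): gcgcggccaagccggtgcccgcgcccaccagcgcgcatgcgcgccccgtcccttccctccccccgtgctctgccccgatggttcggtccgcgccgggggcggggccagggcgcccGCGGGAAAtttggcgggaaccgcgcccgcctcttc
PCNA (chr20:5126623-5126772, minus strand): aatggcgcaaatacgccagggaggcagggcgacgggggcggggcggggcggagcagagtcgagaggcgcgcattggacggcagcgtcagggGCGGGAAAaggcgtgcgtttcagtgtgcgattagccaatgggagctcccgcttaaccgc

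Most targets of p53 rose as well. Of 49 measured targets, 30 rose and 0 fell, with a median of 0.33, and 29 had all mitomycin C arrays above all DMSO arrays (3.1% of all genes did). By role, 11 of 14 genes of arrest and feedback rose (median 0.42), 8 of 14 of cell death (0.36), 6 of 9 of repair and metabolism (0.39) and 5 of 12 secreted, surface and other genes (0.22). Against the medium arrays 20 of 49 were higher and 5 lower, with a median of 0.20, and the share that was lower was near the 9.92% of all genes.

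Of the arrest and feedback genes, CDKN1A, which encodes the cyclin-dependent kinase inhibitor p21, had 12.62, 12.53 and 12.58 under mitomycin C, against 11.78, 11.94 and 11.96 in DMSO, a change of 0.68 ± 0.04 (adjusted p = 6.47e-26). MDM2, the ubiquitin ligase that degrades p53, had 9.02, 8.97 and 8.90 under mitomycin C, against 7.95, 8.32 and 8.43 in DMSO, a change of 0.67 ± 0.10 (adjusted p = 1.81e-07). SESN1, a sestrin that restrains mTORC1, had 9.10, 9.02 and 9.27 under mitomycin C, against 8.17, 8.34 and 8.45 in DMSO, a change of 0.80 ± 0.06 (adjusted p = 1.44e-18). None of the 3 had overlapping groups, and all 3 were also higher than in medium. TP53INP1, a stress protein that promotes p53 activity, changed by 0.81 ± 0.12 (adjusted p = 1.74e-07), with 1 of its 2 probe sets at -0.02.

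Among the death genes, PHLDA3, an inhibitor of AKT, had 9.93, 10.04 and 10.11 under mitomycin C, against 8.81, 9.12 and 9.29 in DMSO, and changed by 0.93 ± 0.08 (adjusted p = 8.24e-17). AEN, a nuclease of apoptosis (0.55 ± 0.06, adjusted p = 1.47e-10), PIDD1, the scaffold of caspase-2 activation (0.54 ± 0.08, adjusted p = 2.84e-07), and TNFRSF10B, a death receptor for TRAIL (0.45 ± 0.04, adjusted p = 4.7e-13), rose too, each with all mitomycin C arrays above the DMSO range. AEN and PIDD1 were not called against medium. BAX, which permeabilises mitochondria, had 10.82, 10.74 and 10.70 under mitomycin C, against 10.34, 10.54 and 10.72 in DMSO. The groups overlapped, and BAX changed by 0.22 ± 0.08 (adjusted p = 0.125). None of the 15 BCL2 family genes was called by limma, and 2 had an unadjusted p under 0.05 (2367 of all 18239 genes did).

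Repair genes among the targets rose as well. POLH, the translesion polymerase eta, which copies past bulky lesions, had 8.48, 8.29 and 8.40 under mitomycin C, against 7.25, 7.70 and 7.89 in DMSO, a change of 0.71 ± 0.09 (adjusted p = 4.65e-10). DDB2 and XPC, which recognise damage for nucleotide excision repair, changed by 0.55 ± 0.05 (adjusted p = 1.32e-14) and 0.51 ± 0.06 (adjusted p = 4.32e-11), and TIGAR, a phosphatase that diverts glucose to the pentose phosphate path, by 0.45 ± 0.06 (adjusted p = 3.07e-08). For all 4 the groups did not overlap. Surface and secreted targets were led by NECTIN4, an adhesion molecule, with 6.51, 6.76 and 6.70 under mitomycin C, against 5.37, 5.76 and 5.92 in DMSO (0.93 ± 0.12, adjusted p = 4.08e-09), and SULF2, a sulfatase of the cell surface, with 7.13, 7.09 and 7.26 under mitomycin C, against 6.03, 6.45 and 6.61 in DMSO (0.74 ± 0.10, adjusted p = 1.77e-08). Neither had overlapping groups, but the medium arrays had 6.40 and 6.68 for NECTIN4 and 6.89 and 6.86 for SULF2, and neither gene was called against medium. GDF15, a stress cytokine and p53 target chosen after its values were seen, had 3.83, 3.77 and 3.86 under mitomycin C, against 3.65, 3.73 and 4.03 in DMSO, below the median of all genes in both groups.

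SDC1, syndecan-1, the plasma cell marker CD138, was the largest rise on the probe sets read. It had 7.52, 7.57 and 7.69 under mitomycin C, against 5.97, 6.47 and 6.72 in DMSO, with no overlap, a change of 1.17 ± 0.11 (adjusted p = 2.69e-14), or 2.25-fold higher. The medium arrays had 8.13 and 7.84, above both groups, so mitomycin C minus medium was -0.39 ± 0.15 (adjusted p = 0.0439) and the direction turned with the control. INKA2, an inhibitor of the kinase PAK4, changed by 0.82 ± 0.09 (adjusted p = 3.45e-11), ID3, an inhibitor of E protein transcription factors, by 0.76 ± 0.10 (adjusted p = 2.57e-09), and MAMDC4, a membrane protein, by 0.68 ± 0.10 (adjusted p = 1.04e-07). INKA2 and ID3 were also higher than in medium, by 0.75 ± 0.12 and 0.95 ± 0.13. The probe sets of SDC1 ran from 0.31 to 1.17, and 2 of 3 were called with limma run on every probe set. Those of INKA2 reached 1.26 and those of PHLDA3 reached 1.23. Over all genes 4247 were called between mitomycin C and medium, against 542 between mitomycin C and DMSO. Between medium and DMSO themselves 4651 of the 18239 genes were called, 2127 higher in medium and 2524 lower. How the difference of a single gene from medium divides between vehicle and drug was not tested. Of the 92 named genes called against DMSO, 56 were called in the same direction against medium, 25 had the same sign without a call and 11 had the opposite sign. Of these 11, the opposite difference was itself called for SDC1, DHRS2, IRF4, HERPUD1 and TNFSF9, and it was not for AEN, PRIM1, CDC25C, TIMELESS, NOP56 and BCL7A.

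Some genes of crosslink repair rose. Of 36 measured Fanconi anaemia and crosslink repair genes, 6 rose and 0 fell (1.88% and 1.09% of all genes), with a median of 0.14. POLH, given above, was the largest. FANCB, a subunit of the core ubiquitin ligase, had 8.07, 8.10 and 7.74 under mitomycin C, against 7.38, 7.58 and 7.69 in DMSO, and changed by 0.44 ± 0.09 (adjusted p = 0.000961). FANCG, another core subunit, had 9.03, 8.94 and 9.11 under mitomycin C, against 8.77, 8.79 and 8.89 in DMSO, and changed by 0.22 ± 0.07 (adjusted p = 0.0415). Both had separate groups, but FANCB was not called without mitomycin C replicate 2, and FANCG was lost without any 1 of the 3 mitomycin C arrays or of 6 of the 8 DMSO arrays.

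USP1, the enzyme that removes ubiquitin from FANCD2 and FANCI, had 11.25, 11.32 and 11.25 under mitomycin C, against 10.94, 11.01 and 11.09 in DMSO, and changed by 0.27 ± 0.05 (adjusted p = 1.27e-05). FANCI, the partner of FANCD2 in the ubiquitinated clamp, had 10.01, 10.01 and 10.02 under mitomycin C, against 9.67, 9.85 and 9.98 in DMSO; its groups did not overlap, yet it did not pass (0.20 ± 0.07, adjusted p = 0.0859). DCLRE1B, the nuclease Apollo, changed by 0.38 ± 0.08 (adjusted p = 0.00112). ERCC4, which encodes XPF, the nuclease that makes the unhooking cut with ERCC1, had 8.30, 8.24 and 8.23 under mitomycin C, against 8.14, 8.26 and 8.50 in DMSO, inside the DMSO range (-0.03 ± 0.09, adjusted p = 0.94). Of the recombination genes, BARD1, the partner of BRCA1 (0.36 ± 0.14, adjusted p = 0.205), XRCC3, a recombination protein (0.31 ± 0.12, adjusted p = 0.2), and BRIP1, a helicase (0.31 ± 0.12, adjusted p = 0.195), did not pass, nor did the translesion polymerase REV1 (0.25 ± 0.10, adjusted p = 0.205). The core subunit FANCE (0.18) and the recombination gene XRCC2 (0.23) were not called either. With limma run on every probe set, 1 of 3 for FANCE and 1 of 2 for XRCC2 was called higher, and their largest changes were 0.59 and 0.71. In nucleotide excision repair 3 of 21 genes rose and 0 fell (1.88% and 1.09% of all genes). They were DDB2, XPC and RPA2, a subunit of the single-strand binding complex (0.20 ± 0.05, adjusted p = 0.00656), the last not called without mitomycin C replicate 2.

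Most damage checkpoint genes were not called. Of 28, 5 rose and 2 fell, with a median of 0.02, while of all genes 1.88% rose and 1.09% fell. CDC25A, the phosphatase that opens the way into S phase and is also an E2F target, had 9.91, 9.93 and 10.03 under mitomycin C, against 9.39, 9.46 and 9.61 in DMSO, and changed by 0.47 ± 0.06 (adjusted p = 3.07e-08). CDC25C, which acts at mitotic entry, had 8.21, 8.33 and 8.27 under mitomycin C, against 8.57, 8.70 and 8.79 in DMSO, and changed by -0.41 ± 0.07 (adjusted p = 3.05e-05). CDC25B changed by -0.29 ± 0.06 (adjusted p = 0.000126). None of the 3 phosphatases had overlapping groups against DMSO. Against medium none of them was called: mitomycin C minus medium was 0.03 ± 0.09 for CDC25A, -0.10 ± 0.07 for CDC25B and 0.20 ± 0.10 for CDC25C, the last in the opposite direction. PKMYT1, a kinase that holds CDK1 inactive, had 10.55, 10.37 and 10.34 under mitomycin C, against 9.83, 10.03 and 10.12 in DMSO, and changed by 0.42 ± 0.06 (adjusted p = 6.78e-07). The fork protection partners TIPIN (0.30 ± 0.08, adjusted p = 0.0111) and TIMELESS (0.28 ± 0.07, adjusted p = 0.00994) and the clamp subunit RAD9A (0.22 ± 0.06, adjusted p = 0.0309) rose slightly, and the mediator CLSPN did not pass (0.34 ± 0.11, adjusted p = 0.0882). The calls of TIPIN, TIMELESS and RAD9A were lost without mitomycin C replicate 2 or 3. The other probe set of TIMELESS changed by -0.007.

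Enzymes that reduce mitomycin C and pumps that export drugs were not called. Of 18 measured, 0 rose and 0 fell by limma, and the median was -0.02. At an unadjusted p under 0.05, 2 were lower, and 2367 of all 18239 genes passed in either direction. NQO1, the quinone reductase best known for activating the drug, had 10.26, 10.33 and 10.34 under mitomycin C, against 10.13, 10.28 and 10.40 in DMSO (0.04 ± 0.05, adjusted p = 0.815). POR, cytochrome P450 reductase, had 8.44, 8.56 and 8.47 under mitomycin C, against 8.05, 8.38 and 8.53 in DMSO (0.15 ± 0.08, adjusted p = 0.436). For both genes the groups overlapped. XDH, xanthine dehydrogenase, changed by -0.23 ± 0.12 (adjusted p = 0.401) at a level below the median of all genes, and ABCC1, an efflux pump, by -0.14 ± 0.07 (adjusted p = 0.353).

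Stress and signalling lists moved little. Of 33 immediate early genes 4 rose and 0 fell (1.88% and 1.09% of all genes). These were IER3, a survival factor (0.53 ± 0.07, adjusted p = 1.36e-08), ATF3, a stress transcription factor (0.42 ± 0.06, adjusted p = 6.42e-07), IER5 (0.42 ± 0.07, adjusted p = 7.5e-06), which is also in the p53 list, and FOSL2, an AP-1 subunit (0.34 ± 0.08, adjusted p = 0.00315). MYC, a driver of growth, had 9.92, 10.05 and 9.94 under mitomycin C, against 10.01, 10.21 and 10.29 in DMSO, with overlap, and changed by -0.21 ± 0.07 (adjusted p = 0.101). In the NF-kappaB list, whose pathway is constitutively active in this cell line, 1 of 31 genes rose, the costimulatory ligand TNFSF9 (0.39 ± 0.10, adjusted p = 0.00705). It had 6.62, 6.64 and 7.28 under mitomycin C, against 6.30, 6.43 and 6.67 in DMSO, so 1 mitomycin C array lay clearly above the DMSO range and the groups overlapped. In medium it had 7.32 and 7.32, and mitomycin C minus medium was -0.47 ± 0.13 (adjusted p = 0.00365), the opposite direction. None of 33 interferon response genes was called by limma, although 27 lay above 0, their median was 0.15 and 11 were higher at an unadjusted p under 0.05. Of all 18239 genes, 2367 had an unadjusted p under 0.05 in either direction. The heat shock and NRF2 list had 0 of 19 called by limma and 2 at an unadjusted p under 0.05. Of 25 ATF4 and unfolded protein response genes, the amino acid transporter subunit SLC3A2 rose (0.17 ± 0.05, adjusted p = 0.0238), and HERPUD1 (-0.26 ± 0.06, adjusted p = 0.00579) and SDF2L1 (-0.23 ± 0.07, adjusted p = 0.0301), both of the endoplasmic reticulum, fell. HERPUD1 was higher than in medium, by 0.48 ± 0.08 (adjusted p = 2.68e-06). Of 27 ribosome biogenesis genes, NOP56, a core nucleolar protein, rose (0.17 ± 0.05, adjusted p = 0.0195) and 0 fell. The calls of FOSL2, TNFSF9, SLC3A2, HERPUD1, SDF2L1 and NOP56 were each lost without 1 or more single mitomycin C arrays. With limma run on every probe set, 2 of 7 were called for ATF3, whose probe sets ran from -0.20 to 0.65. For FOSL2 1 of 5 was called, with a range from -0.03 to 0.34.

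The arrays carried B cell genes in both groups. The mean over 8 measured B cell markers ran from 8.08 to 8.21 on the mitomycin C arrays and from 8.18 to 8.33 on the DMSO arrays, and 4 of the 8 lay above the median of all genes. MS4A1, the surface antigen CD20, was low in both groups: 4.34, 4.38 and 4.24 under mitomycin C, against 4.45, 4.61 and 5.04 in DMSO. IRF4, a factor that this type of lymphoma depends on and that rises in plasma cells, had 12.96, 12.87 and 12.86 under mitomycin C, against 13.06, 13.18 and 13.20 in DMSO, with no overlap, and changed by -0.26 ± 0.03 (adjusted p = 7.65e-09). In medium IRF4 had 12.23 and 12.16, so mitomycin C minus medium was 0.70 ± 0.04 (adjusted p = 3.5e-23), the opposite direction. Of 31 B cell identity genes, 4 fell and 0 rose (1.09% and 1.88% of all genes). Besides IRF4, they were the transcription factors EBF1 (-0.41 ± 0.10, adjusted p = 0.00966) and FOXP1 (-0.32 ± 0.07, adjusted p = 0.00247) and MS4A1 (-0.32 ± 0.09, adjusted p = 0.0402). Each of these last 3 was lost without 1 or more single mitomycin C arrays. The groups of EBF1 and FOXP1 overlapped. With limma run on every probe set, 1 of 12 was called for FOXP1, whose probe sets ran from -0.43 to 0.10. For EBF1 1 of 3 was called, and for MS4A1 0 of 3. IKZF3, the transcription factor Aiolos, had 6.66, 6.48 and 5.93 under mitomycin C, against 5.31, 5.73 and 6.20 in DMSO, with overlap, and did not pass (0.60 ± 0.22, adjusted p = 0.148). Its other probe set changed by 0.65, and with limma run on every probe set 1 of its 2 was called higher. At an unadjusted p under 0.05, 2 of the 31 were higher and 6 lower, against 2367 of all 18239 genes in either direction. Of the markers of other cells limma called 0, with 1 myeloid gene at an unadjusted p under 0.05. The mean over 12 T and NK cell genes ran from 5.84 to 5.99 on mitomycin C arrays and from 5.82 to 5.97 on DMSO arrays. Of these 12, 4 lay above the median of all genes under mitomycin C and 3 in DMSO. The highest were CD5, at 9.68 under mitomycin C and 9.75 in DMSO, and CD4, at 9.49 in both groups, while CD3D, CD3E, CD3G and CD8A lay below that median. For 11 myeloid genes it ran from 4.19 to 4.32 on mitomycin C arrays and from 4.25 to 4.40 on DMSO arrays, and for 11 stromal and epithelial genes from 4.74 to 4.86 on mitomycin C arrays and from 4.82 to 4.92 on DMSO arrays. Their part in any result was not tested.

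Long genes made up part of the falls. Of 737 genes whose RefSeq span exceeds 300 kb, 65 fell (8.82%) and 1 rose, against 23 that fell (0.474%) and 88 that rose among 4852 genes under 10 kb. In between, 0.732% fell at 10 to 30 kb, 0.84% at 30 to 100 kb and 1.28% at 100 to 300 kb. The median fold change over 300 kb was -0.09, and -0.01 under 10 kb. Fallen genes had a median span of 78.5 kb, risen genes 21.1 kb and all genes 25.7 kb. In a list of 43 named long genes, 20 fell and 0 rose, with a median of -0.26 (-0.24 against medium). Of the 43, 42 span over 300 kb, and the 20 that fell are among the 65, so the list is not a separate count. It was also chosen with earlier results of these data known. The size of the long gene result depends on the processing. With each array centred on its median 14.7% of the 737 fell, while the fallen among all 18239 genes went from 199 to 380. Against medium in place of DMSO 19.8% of the 737 were lower, and 9.92% of all genes were. Averaging a gene's probe sets, 43 of 737 (5.83%) and 9 of the 43 listed genes fell. Without mitomycin C replicate 1 or 2, 37 and 36 of 737 fell, and 14 and 10 of the 43.

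SMYD3, a lysine methyltransferase of 757.9 kb, had 8.05, 8.26 and 8.17 under mitomycin C, against 8.58, 8.63 and 8.76 in DMSO, a change of -0.48 ± 0.07 (adjusted p = 1.8e-07). TENM3, a transmembrane adhesion protein of 1355 kb and outside the list, had 9.03, 9.06 and 9.04 under mitomycin C, against 9.38, 9.54 and 9.69 in DMSO, a change of -0.49 ± 0.08 (adjusted p = 1.53e-05). Neither had overlapping groups. LPP, a focal adhesion protein of 737.7 kb (-0.48 ± 0.10, adjusted p = 0.000751), DPYD, a pyrimidine catabolic enzyme of 843.3 kb (-0.50 ± 0.11, adjusted p = 0.0014), and ZBTB20, a transcriptional repressor of 832.8 kb (-0.46 ± 0.12, adjusted p = 0.0132), also fell. LPP and ZBTB20 were not called without mitomycin C replicate 2, nor DPYD without replicate 1, and LPP and DPYD, both below the median of all genes, have probe sets on both sides of 0. The other probe sets of SMYD3 and ZBTB20 changed by only -0.13 and -0.11, and 1 of 2 was called for each gene with limma run on every probe set.

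**Figure D3:**
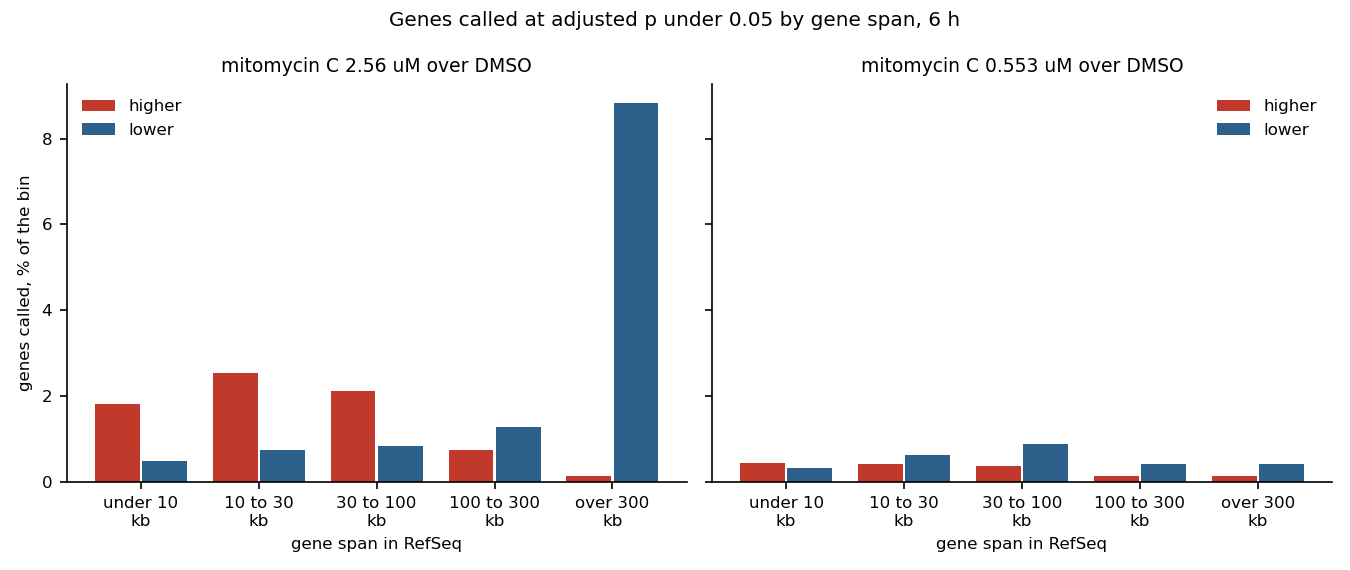
Share of genes called higher (red) or lower (blue) at an adjusted p under 0.05, by gene span in RefSeq, for mitomycin C 2.56 uM over DMSO (left) and mitomycin C 0.553 uM over DMSO (right) at 6 h. At 2.56 uM the share that fell is 8.82% over 300 kb and at most 1.28% in the shorter bins, and at 0.553 uM it is 0.407% over 300 kb.

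Fewer members of the same lists were called at 0.553 uM of mitomycin C. Against the same 8 DMSO arrays, 171 genes were called (0.938%), 65 higher (0.356%) and 106 lower (0.581%). Of the mitosis genes 28 fell and 0 rose, with a median of -0.37 (2.56 uM gave 33, 1 and -0.54). Of the p53 targets 14 rose (median 0.18, against 30 and 0.33 at 2.56 uM), of the replication genes 5 (0.12, against 33 and 0.28), and of the long genes limma called 0, with 3 lower at an unadjusted p under 0.05 (-0.08, against 20 and -0.26). At 0.553 uM, 1831 of all 18239 genes had an unadjusted p under 0.05 in either direction. The values of both doses share the DMSO arrays.

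The contrast of 2.56 with 0.553 uM shares none of them and called 103 genes (0.565%), 69 higher (0.378%) and 34 lower (0.186%) at 2.56 uM. It rests on few arrays: 21 genes were called without replicate 1 of 2.56 uM and 25 without replicate 2. Of the mitosis genes 12 were lower and 0 higher, with a median of -0.22, of the p53 targets 11 were higher and 0 lower (0.18), of the replication genes 3 higher and 0 lower (0.18), and of the long genes 3 lower and 0 higher (-0.16). PLK1 had 9.69, 9.74 and 9.95 as the lowest, median and highest in DMSO, 9.0, 9.18 and 8.85 at 0.553 uM and 8.21, 8.21 and 8.27 at 2.56 uM, so the 3 groups stood apart in order of dose. The higher dose was lower by 0.78 ± 0.08 (adjusted p = 2.85e-10). CENPE had 8.76, 8.65 and 8.95 at 0.553 uM, with a difference between doses of -0.47 ± 0.08 (adjusted p = 0.000103). CDKN1A had 12.34, 12.30 and 12.36 at 0.553 uM, above the DMSO range, and differed by 0.24 ± 0.05 between doses (adjusted p = 0.00223). CDT1 had 9.49, 9.64 and 9.74 at 0.553 uM, at or above the top of the DMSO range, and differed by 0.44 ± 0.10 (adjusted p = 0.00967).

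**Figure D4:**
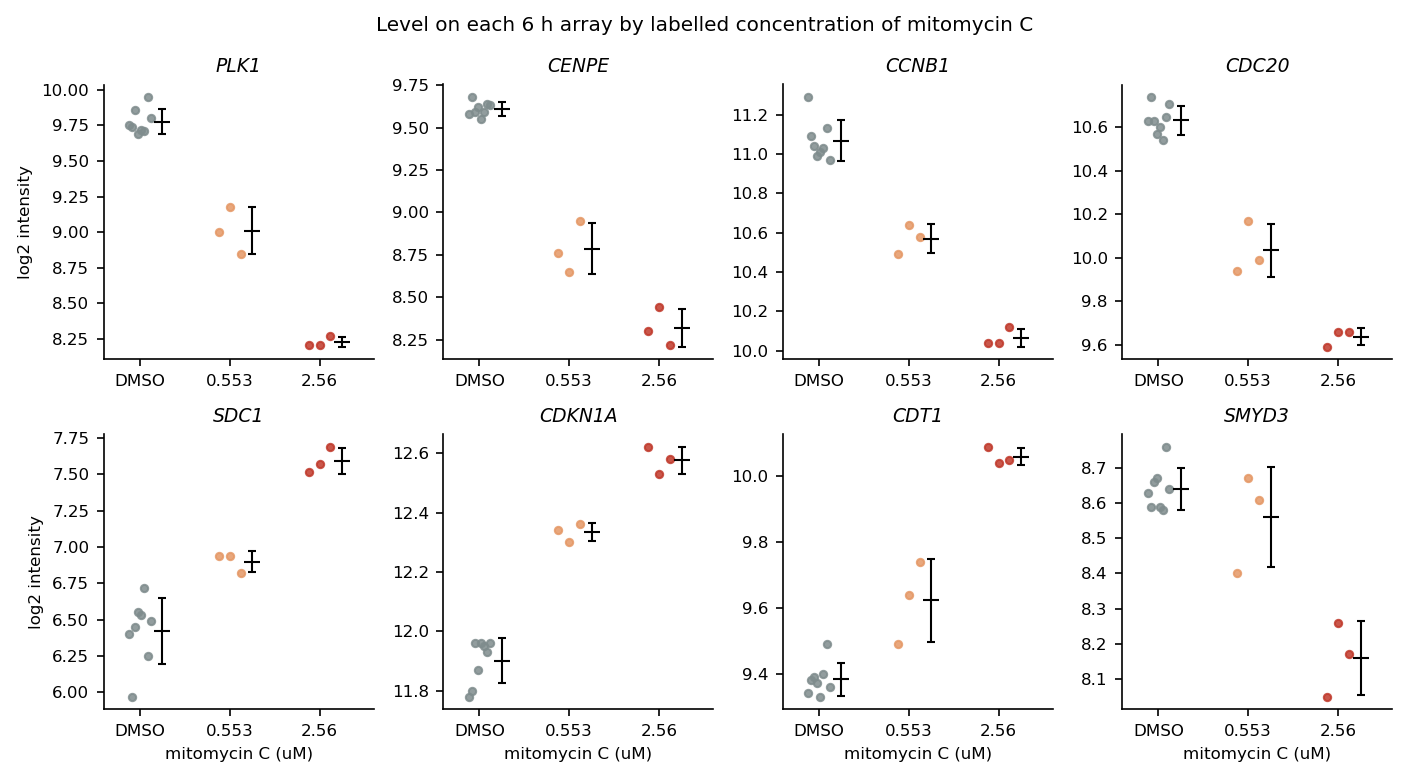
Log2 intensity of 8 genes on each 6 h array in DMSO (grey, 8 arrays), mitomycin C 0.553 uM (orange, 3) and mitomycin C 2.56 uM (red, 3). The bar beside each group is its mean with the SD. PLK1, CENPE, CCNB1 and CDC20 lie lower at each step of dose, SDC1 and CDKN1A higher, and SMYD3 lies below the DMSO range on all arrays of 2.56 uM and on 1 of 3 arrays of 0.553 uM.

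Some of the differences between doses were not differences of 2.56 uM from DMSO. Of the 69 genes higher at 2.56 uM, 31 were also called higher than DMSO, and the other 38 were not called against DMSO and averaged below DMSO at 0.553 uM. The largest was RYBP, a Polycomb subunit, which had 9.67, 9.95 and 10.41 as the lowest, median and highest in DMSO, 9.47, 9.45 and 9.14 at 0.553 uM and 10.38, 10.13 and 9.85 at 2.56 uM, so the low dose lay below and the high dose within the DMSO range. ZNF292, a zinc finger protein, had 8.46, 8.54 and 8.42 at 0.553 uM and 9.48, 9.24 and 8.95 at 2.56 uM. PGM2L1, UGCG and BCL7A differed between doses by 0.74 ± 0.19, 0.70 ± 0.18 and 0.71 ± 0.18, and of these 5 genes BCL7A alone was called against DMSO, with a change of 0.57 ± 0.15 (adjusted p = 0.0127), a call lost without mitomycin C replicate 1 or 2. Of the 34 genes lower at 2.56 uM, 26 were called lower than DMSO. LPP and DLGAP5 were among them, while NKD2, a Wnt pathway antagonist, and ASB2, a ubiquitin ligase subunit, were not.

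Doxorubicin and etoposide, which trap topoisomerase II, and camptothecin, which traps topoisomerase I, were compared as other agents that damage DNA. Each concentration is the study's own and none is matched to 2.56 uM of mitomycin C, so the differences are between these treated groups as labelled. These contrasts use no DMSO arrays, but all share the 3 mitomycin C arrays. Mitomycin C differed from doxorubicin in 899 genes (4.93%), 513 higher (2.81%) and 386 lower (2.12%), from etoposide in 860 (4.72%), 534 higher (2.93%) and 326 lower (1.79%), and from camptothecin in 7593 (41.6%), 3375 higher (18.5%) and 4218 lower (23.1%). With each array centred on its median, 1366 genes differed from doxorubicin, 265 higher and 1101 lower. Leaving out 1 mitomycin C array gave 510 to 590 genes for doxorubicin and 512 to 592 for etoposide. Centring kept the direction of the list medians given below, except for long genes against doxorubicin.

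Replication genes separated mitomycin C from both topoisomerase II drugs. Of 43, 35 were higher than under doxorubicin and 0 lower (median 0.44), and 37 were higher than under etoposide and 0 lower (median 0.46). CCNE2 averaged 8.24 ± 0.09 under mitomycin C and 6.83 ± 0.36 under doxorubicin (SD, n = 3 and 3), a difference of 1.41 ± 0.17 (adjusted p = 3.88e-09). CDT1 averaged 10.06 ± 0.03 under mitomycin C and 9.05 ± 0.12 under doxorubicin (SD, n = 3 and 3), a difference of 1.01 ± 0.10 (adjusted p = 4.33e-13). All mitomycin C arrays lay above all doxorubicin arrays for both. E2F8 was higher than under doxorubicin by 0.99 ± 0.17 and than under etoposide by 1.10 ± 0.14, and E2F2 than under etoposide by 1.01 ± 0.14. FAM111B averaged 7.54 ± 0.17 under mitomycin C and 6.0 ± 0.28 under etoposide (SD, n = 3 and 6), a difference of 1.53 ± 0.14 (adjusted p = 5.58e-15), and encodes a protease linked to replication. UNG, the uracil DNA glycosylase, was higher than under etoposide by 0.93 ± 0.07, and PAQR4, a membrane receptor, higher than under doxorubicin by 0.93 ± 0.10. Against camptothecin, 21 replication genes were higher and 4 lower, with a median of 0.18.

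The p53 targets were lower under mitomycin C than under each of the others: 28 lower and 0 higher against doxorubicin (median -0.35), 27 and 0 against etoposide (-0.27) and 43 and 1 against camptothecin (-0.69). CDKN1A averaged 12.58 ± 0.04 under mitomycin C and 13.01 ± 0.04 under doxorubicin (SD, n = 3 and 3), a difference of -0.43 ± 0.05 (adjusted p = 8.58e-11). MDM2 was lower than under doxorubicin by 0.60 ± 0.12 and than under etoposide by 0.47 ± 0.10. SULF2 averaged 7.16 ± 0.09 under mitomycin C and 8.36 ± 0.11 under etoposide (SD, n = 3 and 6), a difference of -1.20 ± 0.10 (adjusted p = 1.54e-15). LCE1C, a gene of the late cornified envelope, was lower by 0.90 ± 0.12 than under doxorubicin and by 0.80 ± 0.11 than under etoposide. FHL2, a LIM domain cofactor, was lower than under etoposide by 0.82 ± 0.11. With LCE1C and SULF2, the 5 genes furthest below doxorubicin held DUSP5, a phosphatase of ERK, lower by 0.94 ± 0.14, TNFSF9 by 0.83 ± 0.12 and the transcription factor KLF4 by 0.83 ± 0.12.

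Few mitosis genes differed between mitomycin C and doxorubicin. Of 40, 2 were higher and 1 lower (median 0.10), against 35 higher and 0 lower for etoposide (0.33) and 31 higher and 1 lower for camptothecin (0.43). PLK1 averaged 8.23 ± 0.04 under mitomycin C and 8.23 ± 0.16 under doxorubicin (SD, n = 3 and 3), a difference of 0.0 ± 0.08 (adjusted p = 1). A p that misses the threshold does not show that the levels were equal. PLK1 was higher than under etoposide by 0.46 ± 0.07 (adjusted p = 2.86e-06).

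Long genes also differed by compound. Of the 43 listed, 16 were lower and 0 higher than under etoposide (median -0.20), 1 lower and 2 higher than under doxorubicin (0.05, or -0.03 with arrays centred on their median), and 37 higher and 1 lower than under camptothecin (0.95). Among all genes over 300 kb, 84 of 737 were lower under mitomycin C than under etoposide (11.4%) and 0 higher. SNX29, a sorting nexin of 597.6 kb, averaged 5.53 ± 0.18 under mitomycin C and 6.27 ± 0.16 under etoposide (SD, n = 3 and 6), a difference of -0.74 ± 0.14. The 5 genes furthest above camptothecin all span over 300 kb. GRIN2A, a glutamate receptor subunit of 429.5 kb, averaged 9.92 ± 0.02 under mitomycin C and 5.89 ± 0.16 under camptothecin (SD, n = 3 each), a difference of 4.03 ± 0.07. CEP128, TENM3, GPHN and CASK differed by 3.42 ± 0.10, 3.22 ± 0.10, 3.20 ± 0.08 and 3.16 ± 0.09. Of these 5, TENM3 and GPHN fell under mitomycin C against DMSO, GPHN by 0.27 ± 0.07 (adjusted p = 0.00963, not called without mitomycin C replicate 2), and the others did not pass. Furthest below camptothecin were ARC, an immediate early gene of neurons (-3.02 ± 0.16), TENT5C, C1orf162, NECTIN4 and THAP2, from -2.65 to -2.47.

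**Figure D5:**
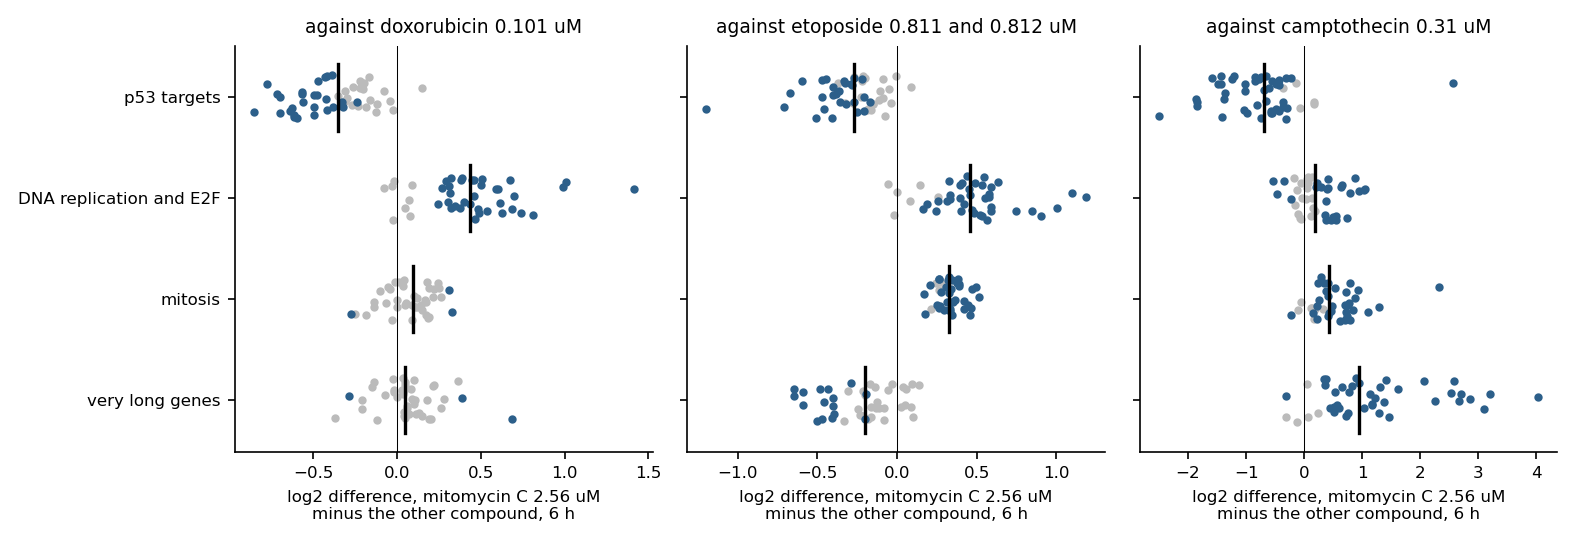
Log2 difference at 6 h, mitomycin C 2.56 uM minus doxorubicin (left), etoposide (middle) or camptothecin (right), for the measured genes of 4 lists. Blue points passed an adjusted p of 0.05, grey points did not, the black bar is the median of the list, and each panel has its own scale. Replication genes lie to the right of 0 with medians of 0.44, 0.46 and 0.18, and p53 targets to the left with medians of -0.35, -0.27 and -0.69.

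The later course of the 6 h genes can be followed only through uneven arrays. At 12 h, 1 of 3 mitomycin C and 4 of 8 DMSO arrays were of low signal (upper quartile under 8, or ACTB 3′ to 5′ difference over 2), and at 24 h 1 of 3 and 1 of 8 were, so values are given without them, with 2 mitomycin C arrays left at each time. On that basis 30 of 49 p53 targets were higher at 12 h (median 0.74) and 45 at 24 h (1.39), with 0 lower at either time (of all genes 1.6% were higher and 0.302% lower at 12 h, 1.9% in all, and 14.2% higher and 15.6% lower at 24 h, 29.8% in all). Replication genes had 29 of 43 higher and 0 lower at 12 h (0.58), but 17 higher and 13 lower at 24 h (0.07). Mitosis genes had 5 higher and 8 lower of 40 at 12 h (-0.09) and 7 higher and 16 lower at 24 h (-0.13). Of the long genes 5 were lower at 12 h and 29 of 43 at 24 h (-0.56).

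Genes went different ways between 6 and 24 h. With every array kept, the change differed between the times in 12.8% of all genes, upward in 2.91% and downward in 9.87%. LCE1C, which rose by 0.64 ± 0.10 (adjusted p = 2.65e-06) at 6 h, had 12.81, 12.58 and 12.89 under mitomycin C at 24 h, against 7.27, 7.90 and 8.05 in DMSO, a change of 4.97 ± 0.14 (adjusted p = 3.27e-40) without low-signal arrays. GDF15, within the DMSO range at 6 h, had 8.46, 5.58 and 9.05 under mitomycin C at 24 h, against 3.62, 3.84 and 5.10 in DMSO, a change of 4.84 ± 0.18 (adjusted p = 1.66e-34). The second of the mitomycin C arrays is the low-signal one, and GDF15 there lies well below the others. CENPE, with 9.38, 5.50 and 9.51 under mitomycin C at 24 h, against 9.06, 9.49 and 9.67 in DMSO, was -0.06 ± 0.09 (adjusted p = 0.687), and its 2 arrays of normal signal lay within the DMSO range. PLK1 kept a lower level, 8.84, 6.37 and 8.49 under mitomycin C at 24 h, against 9.47, 9.56 and 9.71 in DMSO, or -0.92 ± 0.10 (adjusted p = 5.94e-12). CCNE2, higher at 6 h, had 6.50, 6.65 and 6.69 under mitomycin C at 24 h, against 6.72, 7.67 and 8.29 in DMSO, all below the DMSO range, or -1.14 ± 0.21 (adjusted p = 8.72e-06).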

How the data were processed

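RNA of OCI-Ly3 cells was measured on Affymetrix HG-U219 array plates. The values deposited by the authors are log2 intensities per probe set, summarised by RMA per the submitters' processing notes; the RMA version is not given in the sources used here. Of 49386 probe sets, 45259 have 1 gene symbol in the platform annotation, and each of 18239 genes was read from its probe set with the highest mean over all arrays. limma 3.58.1 (R 4.3.3) fitted group means on the 94 arrays of 6 h together, with a trended variance, and p-values were adjusted by Benjamini-Hochberg over all genes; 12 h and 24 h were fitted likewise. The fit was tested on simulated data. Genes named are the 15 largest rises and falls with groups that do not overlap, up to 4 members per role of each list, a few fixed members, and 5 genes per direction of each contrast. The members and lists were chosen with earlier results of these data known, and some list members are not reported here. Alternatives covered scaling, probe sets, filter, variance, replicate block and left-out arrays. Spans and promoters come from RefSeq (GRCh38.p14).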

Additional observations from a re-analysis of the deposited data

Results flagged for a closer look

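Among the 129 genes examined, 13 had 1 DMSO array at 6 h that stood apart from the other 7, by Dixon's gap test at its critical value. Chance flags about 1 in 20 groups. The genes share their arrays, so the flags are not independent. DMSO replicate 2 was the low array for both MDM2 and POLH. The lowest DMSO array stood apart at 7.95 for MDM2, 7.25 for POLH, 9.82 for DDB2, 5.37 for NECTIN4, 6.03 for SULF2, 8.95 for TIPIN, 7.08 for EBF1 and 8.20 for FOXP1. The highest stood apart at 9.49 for CDT1, 8.89 for FANCG, 5.39 for XDH, 5.04 for MS4A1 and 7.14 for ASB2.

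For 39 of the 129 genes the log2 difference between mitomycin C and DMSO itself differed between 24 h and 6 h (limma interaction, Benjamini-Hochberg adjusted p under 0.05). Of these 39, 12 went upward and 27 downward. Over all genes 12.8% differed, 2.91% upward and 9.87% downward. At 24 h, 1 of the 3 mitomycin C arrays and 1 of the 8 DMSO arrays were of low signal, so each difference is followed by its value without low-signal arrays. The upward differences, 24 h minus 6 h, were 4.32 for LCE1C (4.33 without), 3.6 for GDF15 (4.80 without), 2.93 for NECTIN4 (3.37 without), 2.42 for SULF2 (3.37 without), 1.83 for FHL2 (2.81 without), 1.78 for DHRS2 (2.71 without), 1.58 for ARC (2.14 without), 1.27 for SDC1 (1.93 without), 1.24 for IER3 (1.52 without), 1.16 for PHLDA3 (1.66 without), 0.90 for DPYD (-0.10 without) and 0.84 for CDKN1A (1.04 without). Downward, they were -2.16 for UNG (-1.60 without), -1.82 for FAM111B (-1.20 without), -1.72 for FOXP1 (-0.45 without), -1.68 for CCNE2 (-1.82 without), -1.66 for PAQR4 (-1.20 without), -1.64 for ABCC1 (-0.20 without), -1.59 for TIMELESS (-0.61 without), -1.54 for MYC (-0.96 without) and -1.52 for TENM3 (-0.28 without). A further 9 were -1.50 for CHAF1A (-0.34 without), -1.43 for USP1 (-0.58 without), -1.40 for CASK (0.11 without), -1.38 for CDC6 (-0.16 without), -1.32 for RRM2 (-0.51 without), -1.32 for NQO1 (-0.34 without), -1.25 for DCLRE1B (-0.31 without), -1.25 for CDC25A (-0.40 without) and -1.24 for RPA2 (-0.22 without). The smallest 9 were -1.24 for FANCG (-0.19 without), -1.14 for FANCB (-0.32 without), -1.11 for E2F1 (-0.72 without), -1.06 for TIPIN (-0.40 without), -0.97 for RAD9A (-0.28 without), -0.95 for POR (-0.10 without), -0.94 for SMYD3 (-1.01 without), -0.89 for FANCI (-0.03 without) and -0.74 for NOP56 (-0.33 without). Without low-signal arrays DPYD changed sign to below 0 and CASK to above 0. The part of array signal in the downward differences was not tested.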

How the results depend on the processing

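Of 92 called genes named in the text, 64 stayed called under each of 19 alternatives, 28 were lost under 1 or more, and 0 changed sign. Of 37 not called, 7 passed under 1 or more, 0 of them in the opposite direction. Changes of sign without a call were not counted for these 37. With the medium arrays in place of DMSO, chosen after seeing the data, 11 of the 92 turned in sign, 5 of them with a call (SDC1, DHRS2, IRF4, HERPUD1 and TNFSF9). The count of 542 genes became 848 with array weights and 4247 against medium, and ran from 311 to 555 when 1 array was left out. The replicate block gave 598, of which 388 were among the 542; for 0.553 uM it gave 404 in place of 171. Same-numbered arrays share only a number: the deviations of mitomycin C and DMSO arrays correlated at -0.065, -0.010 and -0.079, and the labels name no pairing. Between the 2 mitomycin C doses they correlated at 0.124, 0.05 and 0.079, each array best with its own number, a hint from the data and not the design; there the block gave 100 genes in place of 103. Centring on the median gave 570 genes, 389 of them among the 542, and 1366 against doxorubicin. Leaving out 1 array gave 21 to 107 genes between doses, 510 to 590 against doxorubicin and 512 to 592 against etoposide. At 12 h, 346 genes were called without low-signal arrays (chosen after seeing the data) and 25 with them. At 24 h the count ran from 673, without mitomycin C replicate 2, to 7940, and for 24 h minus 6 h from 168, without the same array, to 5311.

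List medians at 6 h kept their direction in the p53, replication, mitosis and long gene lists. Centring gave 0.273 for p53 targets, 0.224 for replication, -0.592 for mitosis and -0.32 for long genes. Without the dimmest 40% of genes p53 targets had 0.39. The mean of all probe sets gave -0.482 for mitosis and -0.141 for long genes, and the replicate block -0.22 for long genes. Medium in place of DMSO gave 0.203 for p53 targets, 0.142 for replication and -0.327 for mitosis. Leaving out 1 array gave 0.27 to 0.296 for replication and -0.564 to -0.519 for mitosis. The share of genes over 300 kb that fell was 14.7% with centring, 5.83% with all probe sets, 4.21% with the replicate block and 19.8% against medium. It ran from 4.88% to 8.82% when 1 array was left out. Of all 18239 genes, 380 fell with centring, 169 with all probe sets and 222 with the replicate block, and 9.92% were lower against medium. The cause of these shifts was not tested. Dim genes and the 3 mitomycin C arrays limit what can be called.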
